A study of Mus musculus with 8 samples.

Results

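Interleukin-1 (IL-1) family cytokines, the alarmins Il33 and Tslp, and the receptors that bind them were followed in cultured mouse keratinocytes (KCs), the epithelial cells of the epidermis. The group comprised 10 genes, Il1a, Il1b, Il1rn, Il18, Il33, Tslp, Il1r1, Il1r2, Il1rap and Il1rl1, selected by their symbols from the 41457 genes of the deposited tables. All 10 were found once in every table. The genes were picked because values of the same comparison, 1 week against 3 weeks of culture, were already known. Their differences are therefore given below as a description, without p-values. Calls from the fit over all genes are counted or named, and nothing is read from them.

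KCs were isolated from the tail skin of adult wildtype C57BL/6 mice (C57BL/6J in the study's methods) and kept untreated in a serum-free medium with little calcium. Sequencing covered the poly(A) RNA of 8 samples, 4 of them harvested after 1 week and 4 after 3 weeks, which the labels number as replicates 1 to 4 at each time. The design names 4 independent experiments, but the samples of both times are not all separate from each other. The study states that it compared the same batches of KCs at both times. By the preparation numbers in the names of the deposited tables, 46, 49 and 90 occur at both times (replicates 1, 3 and 4 at 1 week and 1, 2 and 4 at 3 weeks), while 47 occurs at 1 week only and 57 at 3 weeks only. All samples share strain, genotype, body site and medium, and the groups differ by the time in culture. The cells were split when nearly confluent, and the number of passages at each time is not given in the sources used here.

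IL-1 alpha and IL-1 beta bind the same receptor, Il1r1, which signals together with the co-receptor Il1rap through Myd88 and the Irak kinases. Il1rn blocks that receptor and Il1r2 is a decoy that binds IL-1 without signalling. IL-18 acts through a receptor of its own, IL-33 acts through Il1rl1 (ST2) paired with Il1rap, and TSLP acts through Crlf2 paired with Il7r. KCs are known to store IL-1 alpha and IL-33 and to release them on damage, and TSLP from KCs is known for its role in allergic skin inflammation. IL-1 beta and IL-18 are made as precursors that caspase-1 cleaves in inflammasomes.

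The stretches of 250 bases before the RefSeq transcription starts (GRCm38.p6) were available for 9 of the 10 genes, in 14 windows, and not for Tslp. They were searched on both strands for TGANTCA, the letters bound by AP-1, for GGANTTTCC, one form of the NF-kB site, and for TATAAA, the TATA box. Windows of 4 genes are shown, because Il1a and Il1b are neighbours on chromosome 2 that stood far apart in level, because Il1rn was lower at 3 weeks in every sample, and because Il33, the most variable member, has a pair of annotated starts. Capitals mark the matches to these letters, and each sequence runs 5′ to 3′ on the strand of its gene.
Il1a, minus strand, chr2:129309973-129310222: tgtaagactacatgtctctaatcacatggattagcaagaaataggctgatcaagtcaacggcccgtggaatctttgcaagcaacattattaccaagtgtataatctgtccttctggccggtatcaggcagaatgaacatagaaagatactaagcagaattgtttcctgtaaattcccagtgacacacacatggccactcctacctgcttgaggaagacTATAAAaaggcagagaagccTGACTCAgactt
Il1b, minus strand, chr2:129371140-129371389: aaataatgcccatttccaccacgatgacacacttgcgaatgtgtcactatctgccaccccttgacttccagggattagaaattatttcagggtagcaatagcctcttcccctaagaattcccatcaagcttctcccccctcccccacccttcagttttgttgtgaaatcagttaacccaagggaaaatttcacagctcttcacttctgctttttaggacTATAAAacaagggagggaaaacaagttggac
Il1rn, first start, plus strand, chr2:24336610-24336859: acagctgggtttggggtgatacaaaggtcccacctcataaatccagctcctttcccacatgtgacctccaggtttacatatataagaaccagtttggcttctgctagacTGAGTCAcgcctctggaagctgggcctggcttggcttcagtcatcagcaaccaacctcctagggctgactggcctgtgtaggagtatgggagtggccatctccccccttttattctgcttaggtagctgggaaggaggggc
Il33, upstream start, plus strand, chr19:29924863-29925112: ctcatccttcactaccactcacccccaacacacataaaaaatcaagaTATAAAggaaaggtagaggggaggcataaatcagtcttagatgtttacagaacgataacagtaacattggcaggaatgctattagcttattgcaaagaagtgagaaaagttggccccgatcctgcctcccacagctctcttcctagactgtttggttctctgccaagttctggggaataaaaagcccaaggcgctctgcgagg
Il33, downstream start, plus strand, chr19:29945540-29945789: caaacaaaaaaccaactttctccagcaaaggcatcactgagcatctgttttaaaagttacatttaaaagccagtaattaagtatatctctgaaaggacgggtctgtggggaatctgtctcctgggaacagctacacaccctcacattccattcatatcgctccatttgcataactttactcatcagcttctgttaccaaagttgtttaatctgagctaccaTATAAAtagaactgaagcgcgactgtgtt
The AP-1 letters were found in 2 of the 14 windows. In Il1a they began 12 bases before the start and in Il1rn 141 bases before it. Of 32851 such windows from 27025 genes, 6.75% held these letters. The TATA letters were found in 5 windows of 4 members. They began 32 bases before the start in Il1a, 31 in Il1b and 29 at the downstream start of Il33, and farther off at the upstream start of Il33 (203 bases) and in Il18 (175 bases), while 12.4% of all windows held them. The NF-kB letters were in 0 of the 14 windows and in 1.07% of all windows. None of the motifs overlapped another in these windows. A match describes the letters and not the binding of a factor.

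The exon reads of a sample numbered 13896807 to 20026084 at 1 week and 14096649 to 18127283 at 3 weeks. The KC label was checked against 8 markers, whose summed RPKM (reads scaled to exon length and to mapped reads) ranged from 13453 to 15807 at 1 week and from 8252 to 9742 at 3 weeks. Krt5 and Krt14 made up most of this sum. Krt5 (means 6170 and 2207 RPKM), Trp63 (26.2 and 14.6) and Itga6 (134 and 71.8) were lower at 3 weeks without overlap. The other markers overlapped between the times, with higher means at 3 weeks for Itgb4 (116 and 139) and Cdh1 (193 and 262). The samples of the 3 weeks group differed more among themselves than those of the 1 week group, with a chi-square per degree of freedom of 31.8 to 264 between pairs against 15.5 to 64.7, and the widest gap lay between replicates 3 and 4 at 3 weeks. Over the 12590 genes with enough reads, the median log2 fold change, 3 weeks over 1 week, was 0.03 in the edgeR fit and -0.16 by limma on log2(RPKM + 0.1), so that RPKM values sit lower at 3 weeks by that shift. Of the genes that passed the threshold, 48.0% were higher at 3 weeks by edgeR and 29.8% by limma. In bulk RNA, fewer cells that express a gene and less RNA per cell cannot be told apart.

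Most of the RNA of the group came from 2 of its genes. Il1a and Tslp together made up 88.8% to 96.7% of the summed RPKM of the 10 genes at 1 week and 72.8% to 84.2% at 3 weeks. The sum itself was 237 to 453 RPKM at 1 week and 40.9 to 61.2 RPKM at 3 weeks. At 1 week the mean levels ran in the order Il1a, Tslp, Il33, Il1rap, Il1r1, Il18, Il1rn, Il1rl1, Il1b and Il1r2. The ranges of Il1a and Tslp, of Il1r1 and Il18, of Il1rn and Il1rl1, and of Il1b and Il1r2 overlapped, and the other neighbours in that order did not. At 3 weeks Il1a stood alone at the top. Tslp, Il1rap, Il33, Il18 and Il1r1 followed with overlapping ranges, and below a gap came Il1rl1, Il1rn, Il1r2 and Il1b, each overlapping with the next.

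**Figure D1:**
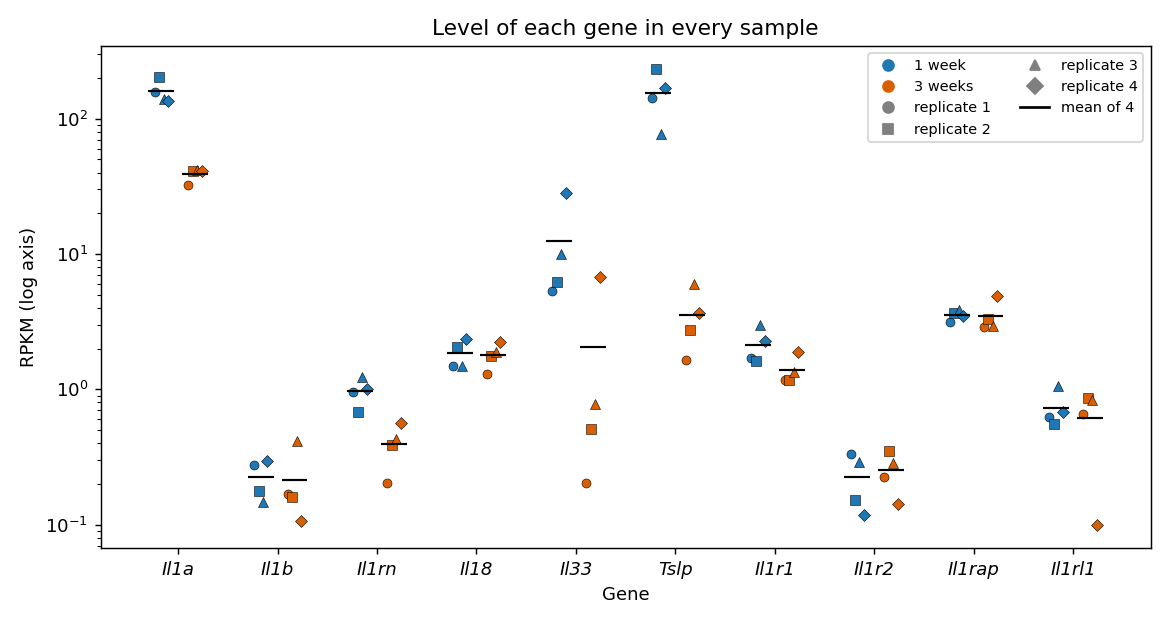
RPKM on a log axis of the 10 genes in the 4 samples at 1 week and the 4 samples at 3 weeks, with symbols for the replicate numbers and bars for the means. Il1a, Tslp and Il1rn have no overlap between the times, Il33 is spread widely with replicate 4 on top at both times, and Il1rl1 has a single low sample at 0.0987 RPKM.

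Of the 10 genes, 8 passed the filter on low counts, while Il1b and Il1r2 did not. In the edgeR fit 3 of these 8 were lower at 3 weeks at an adjusted p-value under 0.05 (Tslp, Il1a and Il1rn), beside 17.0% of all tested genes, and 0 were higher, beside 15.7%. The RPKM ranges of the groups lay apart for the same 3 genes, all lower at 3 weeks, beside 26.2% of all tested genes for that direction and 10.8% for the other. As the genes were chosen on this comparison, nothing is read from these counts. The median log2 fold change of the 8 genes was -0.79, beside 0.03 for all genes. 

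Tslp (chromosome 18), the cytokine that instructs dendritic cells and other immune cells in allergic skin, showed the widest difference of the group. At 1 week its RPKM was 142, 234, 77.6 and 169 in replicates 1 to 4, from 3611, 6406, 1483 and 3975 reads. At 3 weeks it was 1.65, 2.74, 5.99 and 3.68, from 41, 60, 131 and 72 reads. Every sample at 3 weeks was thus far below every sample at 1 week. The mean went from 156 ± 64.6 to 3.52 ± 1.85 RPKM (SD, n = 4 each), a ratio of the means of 44.3, and the log2 fold change was -5.28 ± 0.51 (SE). Omission of any 1 sample gave values from -5.77 to -5.02. Tslp held rank 327 of all genes by mean RPKM at 1 week and rank 7064 at 3 weeks.

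Il1a (chr2:129299610-129309972, minus strand), which encodes IL-1 alpha, was the most abundant member at both times. Its RPKM at 1 week was 158, 205, 139 and 136. In the later samples it was 32.5, 41.2, 41.6 and 40.8. The groups did not overlap, and at 3 weeks replicate 1 lay below 3 samples that were nearly equal. The mean was 159 ± 31.8 at 1 week and 39.0 ± 4.38 at 3 weeks (SD, n = 4 each), and gave a log2 fold change of -1.86 ± 0.17 (SE). Il1a moved from rank 322 to rank 1242 of all genes and so remained a gene of high level at 3 weeks.

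The ratio of Tslp to Il1a, taken within each sample and hence free of library size, was 0.900, 1.14, 0.560 and 1.25 at 1 week. After 3 weeks it was 0.0509, 0.0666, 0.144 and 0.0902. Both RNAs were thus of similar level at 1 week, while at 3 weeks Tslp was the minor one in every sample.

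The reads of Il1a and Tslp were peculiar in one respect. Only 18.4% of the exon reads of Il1a and 19.4% of those of Tslp were counted as unique by the authors, and 32.6% of those of Il1rap, while the other 7 genes had 97.7% or more. Of the unique reads, 5149 of 5150 for Il1a and 3056 of 3056 for Tslp crossed exon junctions. In the GENCODE M21 annotation, 100% of the exon bases of Tslp lie inside the span of 4930455D15Rik, a lincRNA gene of the opposite strand that had 0 to 1 reads per sample and shares 0 exon bases with Tslp. For Il1a, 92.1% of the exon bases lie inside Gm14023, again on the opposite strand, which had 0 to 8 reads and shares 222 exon bases. For Il1rap 76.7% lie inside Gm20319, with 0 to 2 reads. For comparison, genes were taken that had at least 100 reads and the same exon length in GENCODE M21 as deposited. Their median share of unique reads was 100% for 6958 genes with no exon base inside another gene. It was 94.3% for 4116 genes with some, and 6.87% for 793 genes with 90% or more. The use of the strand in counting is not given in the sources used here. The part of this overlap in the counts was not tested. The differences were of like size in each class of reads. The log2 fold change of Tslp was -5.55 with unique reads and -5.44 with reads across junctions only, and that of Il1a -1.90 and -1.86.

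**Figure D2:**
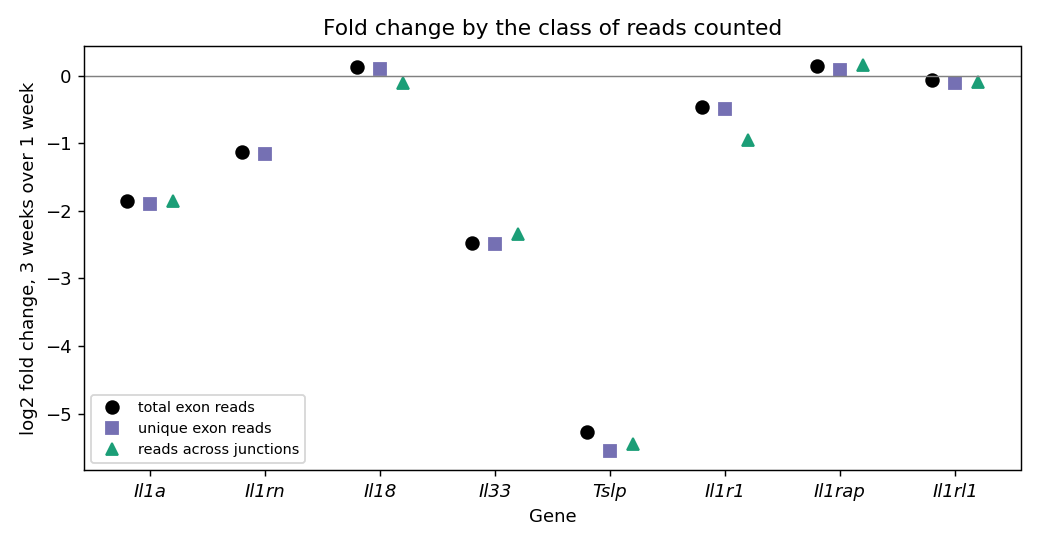
Log2 fold change, 3 weeks over 1 week, of the 8 genes that passed the filter, from total exon reads (circles), unique exon reads (squares) and reads across junctions (triangles). The symbols of Il1a and Tslp lie close together although 18.4% and 19.4% of their reads count as unique, those of Il1r1 range from -0.46 to -0.95, and Il1rn has too few junction reads for a value.

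Il33 (chr19:29925114-29960718, plus strand), a nuclear alarmin, varied most between samples of the same time. Its RPKM at 1 week was 5.30, 6.21, 9.92 and 28.2, from 291, 369, 411 and 1436 reads. At 3 weeks it was 0.204, 0.506, 0.781 and 6.72, from 11, 24, 37 and 285 reads. Replicate 4 was the highest at both times, and at 3 weeks it exceeded replicates 1 and 2 at 1 week, so that the groups overlapped. The other 3 samples at 3 weeks were all below every sample at 1 week. The means were 12.4 ± 10.7 and 2.05 ± 3.12 RPKM (SD, n = 4 each), and the log2 fold change was -2.48 ± 1.01 (SE) with all samples. Within each shared preparation the level was lower at 3 weeks, at 5.30 and 0.204 RPKM in 46, 9.92 and 0.506 in 49, and 28.2 and 6.72 in 90. The log2 fold change was -3.39 with the 3 shared preparations as a block and -3.23 with the replicate number as a block. Il33 passed the threshold under both blocks but not in the reported fit, which has no block. With either block 4 members were counted as lower in place of 3. Over all tested genes, 1558 of 12590 were lower with the replicate block and 1793 of 12649 with the shared preparations. Without a block, Il33 passed with limma on log2(RPKM + 0.1) or log2(RPKM + 1). It also passed without replicate 4 of 3 weeks, the sample that made the groups overlap. The same held without both samples numbered replicate 4, a setting added after seeing the data. As Il33 was chosen on this comparison, these calls are a description and nothing is read from them. Without replicate 4 of 3 weeks the log2 fold change was -4.45, without replicate 4 of 1 week -1.68, and without both -3.69.

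**Figure D3:**
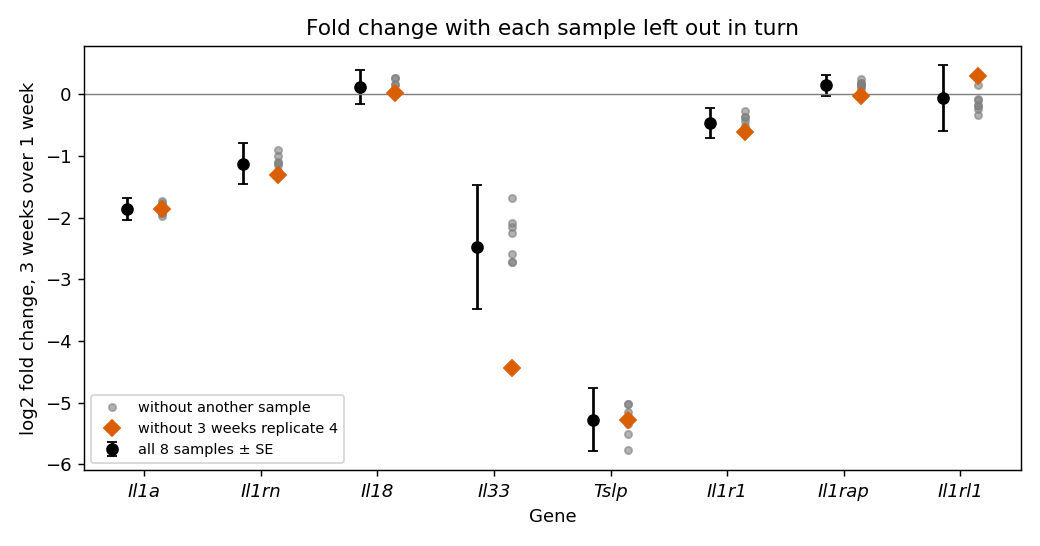
Log2 fold change, 3 weeks over 1 week, of the 8 genes that passed the filter, from all 8 samples with the SE (black) and after omission of any 1 sample (grey, or orange for replicate 4 of 3 weeks). Without that sample Il33 moves from -2.48 to -4.45 and Il1rl1 from -0.06 to 0.30, while Tslp and Il1a stay near -5.28 and -1.86.

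Il1b (chr2:129364570-129371139, minus strand), the neighbour of Il1a and the source of IL-1 beta, was barely detected. It had 10, 7, 4 and 10 reads at 1 week and 6, 5, 13 and 3 reads at 3 weeks, which is 0.146 to 0.297 and 0.107 to 0.415 RPKM. The groups overlapped, and a difference was not detectable at this depth. Il1a exceeded Il1b by a factor of 456 to 1148 in the samples at 1 week and of 100 to 381 at 3 weeks.

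Il1rn (chr2:24336853-24351494, plus strand), the receptor antagonist, was low at both times and lower at 3 weeks. Its RPKM was 0.949, 0.684, 1.23 and 1.00 at 1 week, from 78 to 100 reads. The samples of 3 weeks had 0.204, 0.385, 0.429 and 0.566, from 21 to 46 reads. No sample at 3 weeks reached the level of 1 week, and the log2 fold change was -1.12 ± 0.33 (SE). The ratio of Il1rn to Il1a was 0.00335 to 0.00890 at 1 week and 0.00627 to 0.0139 at 3 weeks, so that the antagonist stayed far below the agonist at both times, with overlapping ranges.

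Il18 (chr9:50554827-50581840, plus strand), a cytokine that is stored as a precursor, was at 1.48, 2.07, 1.49 and 2.36 RPKM at 1 week. The later samples had 1.30, 1.77, 1.89 and 2.24 RPKM. With 22 to 44 reads per sample the groups overlapped fully, and the log2 fold change was 0.12 ± 0.28 (SE).

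The receptors were expressed at low levels, and in none of the 4 did the groups lie apart. Il1r1 (chr1:40225080-40317257, plus strand), the signalling receptor of IL-1, was at 1.71, 1.61, 2.97 and 2.29 RPKM at 1 week. After 3 weeks it stood at 1.16, 1.17, 1.34 and 1.89 RPKM, and the log2 fold change was -0.46 ± 0.24 (SE). Only replicate 4 of 3 weeks reached into the range of 1 week.

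Il1rap (chr16:26581704-26730117, plus strand), the co-receptor of Il1r1 and Il1rl1, was the most abundant of the receptors. It was at 3.13, 3.67, 3.84 and 3.47 RPKM at 1 week and at 2.87, 3.33, 2.94 and 4.90 RPKM at 3 weeks, and the log2 fold change was 0.15 ± 0.17 (SE). Its level relative to Il1r1 was 1.30 to 2.28 at 1 week and 2.20 to 2.86 at 3 weeks, and these ranges overlapped by a narrow margin.

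Il1r2 (chr1:40074079-40125231, plus strand), the decoy receptor, had 12, 6, 8 and 4 reads at 1 week and 8, 11, 9 and 4 reads at 3 weeks. A difference was not detectable with so few reads. Il1r2 was below Il1r1 in every sample, at a ratio of 0.0519 to 0.193 at 1 week and of 0.0754 to 0.301 at 3 weeks.

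Il1rl1 (chr1:40429570-40465415, plus strand), the receptor of IL-33, was at 0.625, 0.556, 1.06 and 0.682 RPKM at 1 week. At 3 weeks it was at 0.662, 0.856, 0.830 and 0.0987 RPKM, from 85, 97, 94 and 10 reads. Replicate 4 of 3 weeks was the lowest of all 8 samples, and the other 3 were within the range of 1 week. The log2 fold change was -0.06 ± 0.54 (SE), and 0.30 without that sample. In the same sample Il33 was the highest of its group, so that the ratio of Il33 to Il1rl1 was 68.1 there, against 0.309, 0.591 and 0.940 in the other samples at 3 weeks and 8.48 to 41.3 at 1 week.

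Il1rl1 is also a gene of mast cells. The 7 mast cell and basophil markers were each below 1 RPKM in every sample, and Fcer1a had 0 reads throughout. Their sum was 0.264 to 0.521 RPKM at 1 week and 0.00764 to 0.527 RPKM at 3 weeks, with the lowest value in replicate 4 of 3 weeks. That lowest value came from 1 read of Kit, with 0 reads of the other markers, too few to compare samples. Of the 11 leukocyte and Langerhans cell markers, Cd207 had 0 reads in every sample. Trdc is listed with an exon length of 0, so that its exon reads could only be 0 and say nothing of its level. With Trdc counted, 7 were below 1 RPKM throughout. The sum was 16.8 to 21.9 RPKM at 1 week and 14.8 to 17.2 at 3 weeks. This sum hides opposite differences. Cd68, a lysosomal gene of macrophages, made up most of it at 1 week but not in every sample at 3 weeks. Its level was 13.7 to 19.5 RPKM at 1 week and 5.09 to 12.5 at 3 weeks. H2-Ab1, an MHC class II gene of antigen-presenting cells, was at 0.723 to 0.866 and 2.74 to 7.03 RPKM. Neither gene overlapped between the times, whereas the other markers of this list with reads did. Cd74 was at 0.482 to 1.42 RPKM at 1 week and 0.604 to 1.60 at 3 weeks. Lyz2 was at 0.732 to 2.59 and 0.724 to 2.04 RPKM, and Csf1r, Adgre1, Itgam and Cd3e overlapped as well. In replicate 3 of 3 weeks H2-Ab1 (7.03) lay above Cd68 (5.09). Ptprc, which encodes the leukocyte antigen CD45, was at 0.00619 to 0.0315 RPKM at 1 week and 0.0149 to 0.0233 at 3 weeks. The summed fibroblast markers (3.53 to 6.32 and 2.71 to 5.95 RPKM) and endothelial markers (3.02 to 5.77 and 1.04 to 5.58 RPKM) overlapped between the times. The melanocyte and Merkel cell markers summed to 3.18 to 20.9 RPKM at 1 week, highest in replicates 3 and 4, and to 1.79 to 5.88 RPKM later. Pmel, a melanocyte gene, was lower at 3 weeks without overlap (1.25 to 6.38 and 0.351 to 1.01 RPKM). The other melanocyte genes of the list, Dct, Mlana, Tyrp1 and Tyr, had lower means at 3 weeks but overlapped between the times. Krt20, a Merkel cell keratin, was higher without overlap (0 to 0.0361 and 0.283 to 0.529 RPKM). It had 0 to 1 reads per sample at 1 week and 8 to 19 at 3 weeks. Atoh1, the other Merkel cell gene, had 1 read in replicate 4 of 1 week and 0 reads elsewhere. The part of other cells in the levels of the 10 genes was not tested.

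For each of the 8 genes the most similar genes were sought by the root mean square difference of the log2 CPM (reads scaled to library size) over the 8 samples, after removal of each gene's mean. For Tslp these were Gjb2, a gap junction gene (0.78), Serpinb10 (0.98) and Lgals7 (1.00), and for Il33 they were Sprr2h (0.55), Cnfn (0.72) and Cdsn (0.96), which encode proteins of the cornified layer. For Il1a the nearest genes were Mid1ip1 (0.17), Nampt (0.19) and Rab38 (0.21), and for Il1rn Abcb1b (0.25), Fst (0.25) and Rfc3 (0.29). Il1rl1 was nearest to Crip1 (0.26), Acsbg1 (0.29) and Bok (0.38), and Il1r1 to Gsr (0.17), Ptges (0.18) and Sema4a (0.19). Il18 was nearest to Ifi202b (0.18), Slc6a6 (0.18) and Cebpa (0.19), and Il1rap to Stx11 (0.09), Malt1 (0.10) and Slc44a2 (0.10). The difference is not scaled to a gene's own spread, so its size is not to be compared between members. The likeness rests on 8 samples in 2 groups and is a description.

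The further genes of the IL-1 and TSLP pathways were examined in 6 lists with 77 genes in the tables, of which 58 passed the filter. At an adjusted p-value under 0.05 (edgeR, quasi-likelihood test), 13 were lower and 8 higher at 3 weeks and 37 passed in neither direction. Of all tested genes 32.8% were called in either direction, 17.0% lower and 15.7% higher. The counts of the single lists below are to be read beside these shares. The median log2 fold change of the 58 genes was 0.06. Adjusted p-values in the following paragraphs are from that fit and run over all 12590 genes.

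Of the 7 other ligands and binding proteins, 3 were tested, 2 fell and 0 rose, with a median log2 fold change of -1.65. Il1f5, the IL-36 receptor antagonist, fell by 4.37 on the log2 scale (SE 0.72, adjusted p = 0.0023). Its RPKM was 0.807, 0.465, 2.00 and 3.48 at 1 week and 0.0407 to 0.136 at 3 weeks, without overlap. Il1f6, which encodes IL-36 alpha, fell by 1.61 (SE 0.49, adjusted p = 0.034), and passed the threshold in 9 of 17 alternative analyses, not with the shared preparations as a block (adjusted p = 0.077). Il18bp, the inhibitor of IL-18, was at most at 0.101 RPKM and was not tested.

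Of the 9 other receptors, 5 were tested, 2 fell and 1 rose (median 0.32). Il1rl2, the receptor of the IL-36 cytokines, was at 2.22 to 4.88 RPKM at 1 week and at 0.914 to 1.53 at 3 weeks (log2 fold change -1.47 ± 0.27 SE, adjusted p = 0.0039). Il18r1, the receptor of IL-18, fell by 0.91 on the log2 scale (SE 0.18, adjusted p = 0.0050), again without overlap between the groups. Crlf2, the receptor chain for TSLP, was higher at 3 weeks by 0.66 (SE 0.21, adjusted p = 0.037), with 5.22 to 7.08 RPKM at 1 week and 6.15 to 9.90 at 3 weeks. The groups overlapped, and Crlf2 passed the threshold in 5 of 18 alternative analyses and under neither block (adjusted p = 0.083 and 0.12). Its partner Il7r was at most at 0.0416 RPKM and was not tested. Sigirr, an inhibitory receptor, had a log2 fold change of 0.32 (SE 0.32, adjusted p = 0.47).

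Of 17 genes of inflammasomes and cytokine processing, 10 were tested, 3 fell and 0 rose (median -0.06). Pycard, the adaptor ASC that links sensors to caspase-1, was at 2.35, 1.94, 1.70 and 2.33 RPKM at 1 week and at 0.155, 0.144, 0.208 and 0.233 RPKM at 3 weeks. All samples at 3 weeks were below those at 1 week, and the log2 fold change was -3.32 (SE 0.26, adjusted p = 0.00018). Gsdmd, the pore protein cleaved by caspase-1, fell by 1.40 (SE 0.39, adjusted p = 0.023), and Nlrp10 by 1.04 (SE 0.34, adjusted p = 0.043, with overlapping groups). Gsdmd did not pass with the replicate block (adjusted p = 0.052) or the shared preparations (adjusted p = 0.13), and Nlrp10 passed in 11 of 18 alternative analyses. Casp1 itself had a log2 fold change of 0.11 (SE 0.42, adjusted p = 0.87). The sensors Nlrp3, Nlrp1a, Nlrp1b, Nlrp6, Nlrc4 and Aim2 did not pass the filter on low counts.

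All 20 genes of receptor-proximal signalling were tested, 4 rose and 2 fell (median 0.12). The kinase genes Irak1 and Irak2 moved in opposite directions. Irak1 was at 17.4 to 19.4 RPKM at 1 week and at 8.20 to 11.2 at 3 weeks (log2 fold change -0.68 ± 0.11 SE, adjusted p = 0.0018), whereas Irak2 was at 3.06 to 3.91 and 5.42 to 6.21 RPKM (0.89 ± 0.14 SE, adjusted p = 0.0017). The Pellino genes, ubiquitin ligases of this pathway, were also split. Peli2 fell by 1.70 (SE 0.39, adjusted p = 0.0098), Peli1 rose by 0.56 (SE 0.12, adjusted p = 0.0080) and Peli3 rose by 1.31 (SE 0.43, adjusted p = 0.044), the last in only 3 of 17 alternative analyses and under neither block. Peli1 did not pass with the shared preparations as a block (adjusted p = 0.076) or with junction reads (adjusted p = 0.27). Ube2v1, a subunit of a ubiquitin-conjugating enzyme, rose by 0.64 (SE 0.13, adjusted p = 0.0067), but with 1.98% of its reads counted as unique, and it did not pass with unique reads (0.42, adjusted p = 0.24) or with the shared preparations as a block (0.47, adjusted p = 0.075). Myd88, the adaptor of the receptors, had a log2 fold change of 0.11 (SE 0.14, adjusted p = 0.57).

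Of 9 upstream regulators of Tslp, 7 were tested, 2 fell and 0 rose (median -0.03). F2rl1, the protease receptor PAR2, fell by 1.04 (SE 0.32, adjusted p = 0.034), and the retinoic acid receptor gene Rarg by 0.56 (SE 0.19, adjusted p = 0.046). F2rl1 passed in 12 of 18 alternative analyses and not with the replicate block (adjusted p = 0.088), and Rarg passed in 9 of 18 and not with the replicate block (adjusted p = 0.053) or the shared preparations (adjusted p = 0.063). Both are known as inputs to Tslp in KCs. Of 15 genes known to respond to IL-1, 13 were tested, 3 rose and 2 fell (median -0.01). The chemokine genes Cxcl5 and Cxcl1 fell by 1.55 (SE 0.32, adjusted p = 0.0065) and 1.26 (SE 0.33, adjusted p = 0.019). Csf2, which encodes GM-CSF, rose by 1.75 (SE 0.45, adjusted p = 0.016), the adhesion gene Icam1 by 0.88 (SE 0.23, adjusted p = 0.020) and the feedback inhibitor Tnfaip3 by 0.81 (SE 0.25, adjusted p = 0.037), which passed in 5 of 18 alternatives. The groups overlapped for Icam1 and Tnfaip3. Neither Icam1 (adjusted p = 0.068) nor Tnfaip3 (adjusted p = 0.088) passed with the replicate block, and Icam1 passed in 12 of 18 alternatives. Csf2 did not pass with the shared preparations as a block (adjusted p = 0.073) or without both samples numbered replicate 4 (1.07, adjusted p = 0.059). The other 8 tested response genes did not pass in either direction.

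**Figure D4:**
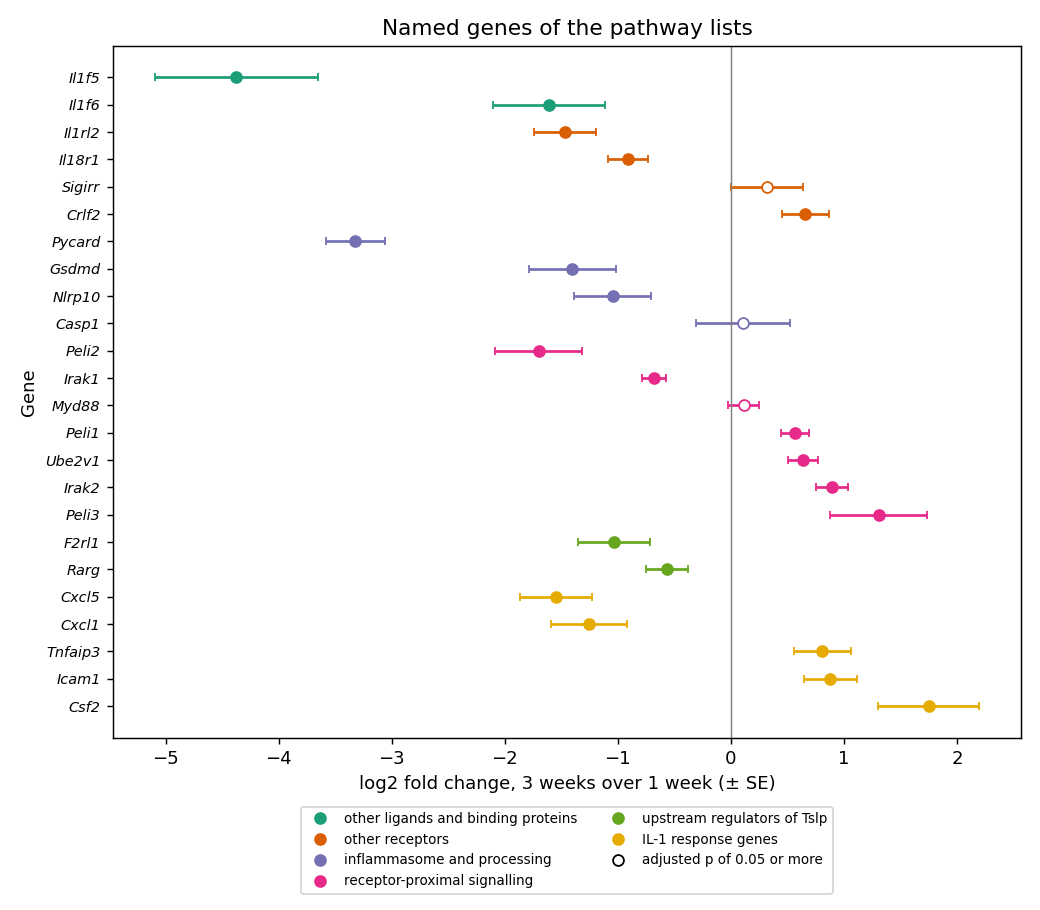
Log2 fold change, 3 weeks over 1 week, with SE, of the named genes of the 6 pathway lists, coloured by list, open circles marking adjusted p-values of 0.05 or more. Il1f5 (-4.37) and Pycard (-3.32) lie farthest to the left and Csf2 (1.75) farthest to the right, and within receptor-proximal signalling genes lie on both sides of 0.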

How the data were processed

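The samples were KCs after 1 week (4) or 3 weeks (4) of culture, measured by sequencing of poly(A) RNA. The authors trimmed the reads, aligned them to GRCm38 in the CLC Genomics Workbench and deposited raw counts of total, unique, intron and junction reads per gene, along with RPKM and TPM values written with decimal commas. RPKM was used as deposited, and TPM was not used. The annotation release and the use of strand are not given in the sources used here.

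Total exon reads were tested over the whole table with edgeR 4.0.16 in R 4.3.3 (filterByExpr, TMM, glmQLFit and glmQLFTest, Benjamini-Hochberg adjustment, threshold 0.05), with all 8 samples and no covariate, and SEs were derived from the F statistics. p-values measure the spread between these samples. The procedure was tested on simulated data. Alternatives were DESeq2 1.42.0, unique reads, upper-quartile normalization, omission of the filter on low counts, limma 3.58.1 on log2(RPKM + 0.1) or log2(RPKM + 1), a replicate block, the 3 shared preparations as a block, and each sample left out. Reads across junctions only, and the omission of both samples numbered replicate 4, were added after seeing the data. Preparation numbers came from the names of the deposited tables. Within a group, the closest pair of samples differed by a chi-square per degree of freedom of 15.5. No sample was thus treated as a copy of another in its group. This distance was not taken across the times, so it does not bear on the shared preparations. It also cannot show whether samples came from separate animals.

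The 10 genes and all lists were chosen with earlier results of these data known. Named were the 10 genes, the pathway genes with an adjusted p-value under 0.05 (up to 8 per list by absolute log2 fold change), Casp1, Pycard, Myd88, Sigirr, Il1rl2, Il18bp, Crlf2 and Il7r whatever their values, and for each of the 8 tested members the 3 genes of at least 10 CPM with the nearest pattern. IL-36 genes are listed in the tables under their older Il1f symbols. Motifs were searched, and figures drawn, with Python and matplotlib.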

Additional observations from a re-analysis of the deposited data

Results flagged for a closer look

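In 72 groups of 4 samples, 1 for each named gene and time, 7 had a sample far from the other 3 by Dixon's criterion, a number to be read beside the 1 in 20 groups that chance gives. Among the members, Il1a was lowest in replicate 1 of 3 weeks, at 32.5 RPKM against 40.8 to 41.6 in the others. Il33 was highest in replicate 4 of 3 weeks, at 6.72 RPKM against 0.204 to 0.781. In the same sample Il1rl2 was highest at 1.53 RPKM against 0.914 to 0.991, Nlrp10 at 9.51 RPKM against 3.27 to 4.09, and Peli3 at 0.917 RPKM against 0.418 to 0.482. Irak1 was lowest in replicate 3 of 3 weeks, at 8.20 RPKM against 10.9 to 11.2. Csf2 was highest in replicate 3 of 1 week, at 3.66 RPKM against 1.42 to 1.77. Thus 4 of the 7 values came from replicate 4 of 3 weeks, and the cause was not tested.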

How the results depend on the processing

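Tslp and Il1a kept their direction in all 18 alternatives, with log2 fold changes from -5.77 to -5.02 and from -2.01 to -1.73. Of the members, 2 to 4 were called lower and 0 higher in every alternative. Over all genes the alternatives called 1558 to 3090 lower and 1197 to 2424 higher, of 9887 to 21763 tested. Il1rn (-1.48 to -0.49) was not past the threshold without replicate 1, 3 or 4 of 1 week or replicate 2 of 3 weeks. Il33 was past it in 6 of 18 alternatives. These were both blocks, limma at either pseudocount, and the fits without replicate 4 of 3 weeks or without both samples numbered replicate 4. As members were chosen on this comparison, these calls are a description. Il1r1 passed it only with junction reads (-0.95).

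Of the pathway genes, 8 were higher in the reported analysis. The number was 5 with no filter on low counts, 4 with limma at either pseudocount, 4 with the replicate block, 3 with the 3 shared preparations as a block, 4 with reads across junctions only, and 4 without both samples numbered replicate 4. Omission of single samples gave 3 to 9, with 3 without replicate 1 or replicate 4 of 1 week. With DESeq2 12 were higher, the largest number, and 17 lower. The 13 pathway genes that were lower became 7 with reads across junctions only, and 9 to 20 on omission of single samples, with 20 without replicate 4 of 3 weeks. Over all genes, the 1981 higher genes became 1313 and 1281 with limma (pseudocounts 0.1 and 1) and 1309 with the replicate block. They were 1316 with the shared preparations, 1197 with reads across junctions and 2424 with DESeq2. The cause was not tested, although fewer samples or genes entered some of these fits. The lower genes, 2146, stayed within 1.5 times in all alternatives.

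The replicate numbers alone did not meet the criterion for a replicate block, a correlation of the deviations over 0.1 in every pair. These were -0.19, -0.16, -0.11 and 0.24 for replicates 1 to 4, and 1 of 4 samples correlated best with its own number. The 3 preparation numbers found at both times link samples by name, with correlations of -0.19 (46), 0.21 (49) and 0.24 (90). Number 46 thus did not meet the criterion either. The study states that the same KC batches were compared at both times, but not which samples share a batch. Whether a shared number stands for the same animals is not given in the sources used here. With the replicate block the log2 fold changes of Tslp, Il1a, Il1rn and Il33 were -5.36, -1.85, -1.17 and -3.23. At 3 to 13 reads per sample for Il1b and 4 to 12 for Il1r2, depth limits what can be said of these genes.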
